A study of Mus musculus with 34 samples.

Results

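The macrophage identity genes are 34 genes that mark macrophages, chosen by name: surface receptors such as Csf1r, Adgre1 and Itgam, the complement C1q chains, Fc and pattern recognition receptors, and products such as Lyz2, Mpeg1 and Mmp12. Each gene was read from the probeset that mapped to its symbol alone, and from the brightest one where several did. This gave 33 measured genes of the 19938 genes on the array. Slc11a1, the natural resistance-associated transporter of the phagosome, was the 1 gene for which no probeset was used.

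Macrophages arise from monocytes or embryonic precursors and depend on signalling through the colony-stimulating factor 1 receptor, Csf1r. They take up dying cells and microbes through scavenger, lectin, complement and Fc receptors, and they digest what they take up with enzymes such as lysozyme. The transcription factor PU.1, encoded by Spi1, drives much of this programme together with C/EBP and AP-1 factors, and B-cell precursors also carry PU.1 at a lower level. Several of the genes are shared with other myeloid cells: neutrophils and dendritic cells carry some of the surface receptors, and mast cells carry Fc receptors and paired immunoglobulin-like receptors.

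RNA was measured on 34 arrays. It came from the mouse lines 8093 and Bin-2, which are pre-B acute lymphoblastic leukaemias of BCR/ABL transgenic mice and so carry the constitutively active ABL kinase of Philadelphia-positive leukaemia. The 8093 line is of inbred C57Bl/6J background and Bin-2 of mixed background, each from 1 mouse. In all groups the cells grew on irradiated mouse embryonic fibroblasts in McCoy's medium with 15% fetal calf serum, 10 ng/ml interleukin-3 and β-mercaptoethanol, the same feeder layer was kept throughout, and the loosely attached and floating cells were collected. Nilotinib, an inhibitor of the ABL kinase, was given at 20 nM to 8093 and at 50 nM to Bin-2. Lonafarnib, an inhibitor of farnesyltransferase, was given at 1 µM to 8093 and at 0.25 µM to Bin-2. Each of these 4 courses had a start (day 0), a midpoint at low viability and an end after recovery to about 90% viability. The midpoint was day 3 at 5 to 10% viable cells, except in 8093 under lonafarnib, where it was day 4 at 20%. The end was day 20 for nilotinib and day 26 for lonafarnib in 8093, and day 21 and day 30 in Bin-2. The 8093 ends had 2 arrays each and the other 10 groups 3, with 1 plate per array. The doses and days differ between the lines, the plates of a group came from 1 cell line, and p-values therefore measure the spread between plates.

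Levels are deposited log2 signals, so a difference of 1 is a 2-fold change. Changes are given with the standard error (SE) from limma fitted over all 34 arrays, and a gene is said to have risen or fallen where the Benjamini-Hochberg adjusted p over 19938 genes was below 0.05. As a guide to the background, 95% of 1027 olfactory receptor genes lay below 4.76 over all arrays. That level was 5.17 at the 8093 nilotinib midpoint and 5.03 at the Bin-2 lonafarnib midpoint, against 4.53 to 4.70 in the other 10 groups, and the interquartile range of signals was smallest in these 2 groups, at 3.03 and 3.16 against 3.42 to 3.55 elsewhere. Markers of pre-B cells (14 genes, among them Igll1, Vpreb1 and Cd79a) averaged 8.21 to 8.90 at the 4 starts. At the end of nilotinib in 8093 they averaged 5.16, with Cd79a at 5.33, while 13 mast cell and basophil genes averaged 10.89. The markers that the label names were thus much lower in the cells collected there, and 4 of the 14 lay below the background guide. RNA from viable and dying cells, and fewer cells of a type against less RNA per cell, cannot be told apart in these bulk samples.

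Promoter sequence was held for 25 of the 33 measured genes (RefSeq, mouse build GRCm38.p6). In the 250 bases before each start, the letters GAGGAA, the core read by PU.1 and other ETS factors, stood on either strand in 15 of the 25 genes, or 60%, against 25.9% of 27025 genes. An AP-1 motif, TGANTCA, stood in 6 of the 25 genes (24.0% against 7.8%), a C/EBP motif, TTGCNNAA, in 4 (16.0% against 10.8%) and an E-box, CACGTG, in 1 (4.0% against 6.9%). The genes were not matched for base composition, and a match describes the letters, not binding. The stretches around 1 match each are given for 9 genes that rose in at least 1 course and for Apoe, which rose in none, with the match in capitals (TTCCTC is GAGGAA on the other strand).
C1qb: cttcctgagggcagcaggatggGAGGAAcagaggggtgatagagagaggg
C1qc: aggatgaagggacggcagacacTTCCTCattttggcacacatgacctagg
Itgam: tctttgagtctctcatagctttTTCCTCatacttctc
Cd68: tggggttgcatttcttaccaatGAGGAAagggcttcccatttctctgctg
Cd300lf: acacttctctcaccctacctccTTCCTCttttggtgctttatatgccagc
Clec7a: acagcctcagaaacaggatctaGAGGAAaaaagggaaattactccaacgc
Mrc1: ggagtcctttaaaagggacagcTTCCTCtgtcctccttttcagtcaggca
Mmp12: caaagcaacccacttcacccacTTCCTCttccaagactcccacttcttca
Wfdc17: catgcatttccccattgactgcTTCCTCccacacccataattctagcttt
Apoe: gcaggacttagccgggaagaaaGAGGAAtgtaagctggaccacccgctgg
These stretches lie at chr4:136886203-136886252 (minus strand, C1qb), chr4:136893080-136893129 (minus strand, C1qc), chr7:128062603-128062639 (plus strand, Itgam), chr11:69666368-69666417 (minus strand, Cd68), chr11:115134008-115134057 (minus strand, Cd300lf), chr6:129472848-129472897 (minus strand, Clec7a), chr2:14229357-14229406 (plus strand, Mrc1), chr9:7344289-7344338 (plus strand, Mmp12), chr11:83703995-83704044 (plus strand, Wfdc17) and chr7:19698503-19698552 (minus strand, Apoe). Apoe thus carries the same letters as the 9 rising genes shown, which were taken from genes with a match. The rest of the 25 genes with promoter sequence had no GAGGAA match. All of these, among them Cybb, Itgax, Ms4a7 and Siglech, also rose in at least 1 course.

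At the start the macrophage genes ranged from below the background guide to well above it. Their mean level was 4.91 and 4.88 at the 2 starts of 8093 and 5.64 and 5.59 at the 2 starts of Bin-2, and 12 to 15 of the 33 lay below the background guide in each of these groups. The starts of the lonafarnib and nilotinib courses of a line did not differ for any member in limma: 0 of 33 passed in 8093 and 0 of 33 in Bin-2, with 0% and 0% of all genes called higher and as many lower. At an unadjusted p below 0.05, 1 member was lower in 8093 and 0 differed in Bin-2. Bin-2 began higher than 8093 for 12 of the 33 genes and lower for 1, where 9.47% and 10.6% of all genes were higher and lower, and the median difference was 0.53 against 0.00 over all genes.

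Several of the genes that set the lines apart before treatment did so by a wide margin. Cybb, the catalytic subunit of the phagocyte oxidase, was 3.73 ± 0.25 (adjusted p = 4.95e-13) higher in Bin-2, Csf1r was 2.73 ± 0.24 higher, Siglech, a sialic acid-binding receptor best known from plasmacytoid dendritic cells, was 2.70 ± 0.10 higher, and Mpeg1, the pore-forming perforin-2, was 2.60 ± 0.26 higher. Adgre1, an adhesion receptor and classical macrophage antigen, was the only gene called lower in Bin-2. It lay between 7.03 and 7.31 on the 6 starting arrays of 8093 and between 4.45 and 4.84 on those of Bin-2, a difference of -2.53 ± 0.28 (adjusted p = 2.56e-08). A marker of the class was thus well above the background guide in 8093 cells before any drug. Tlr2 was also lower on every Bin-2 start array (at most 6.19) than on every 8093 one (at least 6.22), but it did not pass.

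Nilotinib in 8093 was followed by the rise with the largest median. Of the 33 genes, 28 rose by the midpoint, 1 fell and 4 did not pass, and 29 rose by the end, 1 fell and 3 did not pass. The median change was 3.09 at the midpoint and 3.76 at the end, against 0.03 and -0.15 over all genes. In the same comparisons 22.6% and 19.6% of all genes rose and 27.5% and 24.9% fell. For 29 genes every midpoint array lay above every start array (23.9% of all genes), and for 29 every end array did (23.1%). From midpoint to end 8 genes rose further, 2 fell and 23 did not pass, where 26.7% of all genes rose and 27.8% fell. Both changes use the same start arrays.

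Markers of other cells moved in the same arrays. The mean of the 13 mast cell and basophil genes went from 3.92 to 9.11 by the midpoint and to 10.89 by the end, and 13 and then 12 of them rose. The 14 pre-B genes averaged 8.21, 8.20 and 5.16; at the midpoint 3 of them had risen and 4 fallen, and at the end 1 and 12. Of 15 fibroblast genes 9 rose and 1 fell at the midpoint, and 0 rose and 2 fell at the end. Their means were 4.81, 5.10 and 4.42 (at an unadjusted p below 0.05 none was higher at the end either). Of 6 erythroid and megakaryocyte genes 4 and then 5 rose, with means of 4.52, 5.97 and 7.03. Of 11 T and NK cell genes 3 rose and 2 fell at the midpoint and 4 fell at the end, with means of 4.20, 4.33 and 3.76. Beside these counts, 22.6% and 19.6% of all genes rose at the midpoint and end, and 27.5% and 24.9% fell. The part of these cells in the rise of the macrophage genes was not tested.

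In Bin-2 the same drug was followed by a rise of 27 genes at the midpoint, with 0 falls, and of 31 genes at the end, with 0 falls. At an unadjusted p below 0.05 these counts were 30 and 32 higher and 0 and 0 lower. Fewer genes of the array moved in this course: 1.87% of all genes rose and 1.6% fell at the midpoint, and 4.95% rose and 3.94% fell at the end. The median change of the macrophage genes was 2.15 and 2.70, against 0.01 and -0.03 over all genes. In 32 of the 33 genes all midpoint arrays, and in 32 all end arrays, lay above all start arrays (12.6% and 11.4% of all genes). From midpoint to end only Itgax and Clec7a passed, both upward (0.998% of all genes rose), although 21 were higher at an unadjusted p below 0.05. Without midpoint replicate 1 the midpoint rise held for 19 genes in place of 27, losing Fcgr2b, Mrc1, Tyrobp, Trem2, Cd14, Aif1, Cd300lf and Ms4a7.

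None of the mast cell genes rose at the Bin-2 midpoint in limma. Their mean went from 4.21 to 4.23 by the midpoint and to 6.87 by the end, with 0 risen and 1 fallen at the midpoint (0 higher and 2 lower at an unadjusted p below 0.05) and 11 risen and 1 fallen at the end. The pre-B genes averaged 8.90, 8.79 and 8.78, with 0 risen and 1 fallen at the midpoint and 2 and 4 at the end. The fibroblast genes averaged 4.63, 4.68 and 4.54, with 2 risen and 1 fallen at the midpoint and 0 and 1 at the end. The 6 erythroid and megakaryocyte genes averaged 4.61, 5.37 and 5.74, with 1 and then 2 risen. Beside these counts, 1.87% and 4.95% of all genes rose at the midpoint and end, and 1.6% and 3.94% fell. At the start and at the midpoint 11 of the 13 mast genes lay below the background guide, with Cpa3 the brightest at 6.50 and 5.80. The macrophage genes averaged 7.73 at that midpoint.

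With lonafarnib fewer of the genes rose. In 8093 16 genes rose by day 4 and 0 fell (20 higher and 0 lower at an unadjusted p below 0.05), where 3.89% of all genes rose and 6.9% fell, and the median change was 1.00 against 0.01. At the end 8 genes were still above the start and 1, Adgre1, was below it (4.4% and 4.31% of all genes), with a median of 0.34 against -0.03. Between midpoint and end 0 rose and 9 fell (1 higher and 12 lower unadjusted), where 3.95% and 2.31% of all genes did. Without end replicate 2 the rise at the end held for 3 genes in place of 8, losing Lyz2, Clec4n, Gpnmb, Wfdc17 and Mmp12. Without midpoint replicate 1 the later fall held for 3 genes in place of 9, and without end replicate 1 for 1. The mast list averaged 3.89, 6.10 and 5.14 in this course, with 10 of 13 genes risen at the midpoint and 6 at the end, and its part was not tested.

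In Bin-2 under lonafarnib 14 genes rose at the midpoint and 1, Siglech, fell (4.45% and 12% of all genes), with a median change of 0.82 against -0.01. At the end 7 were above the start and 2, Siglech and Cybb, below it (4.66% and 3.41% of all genes), with a median of 0.41 against 0.02. From midpoint to end 0 rose and 3 fell (1 higher and 11 lower unadjusted), against 19.8% and 9.97% of all genes. The mast list stayed at 4.26, 4.18 and 4.11 and none of its genes rose (limma, 0 risen and 2 fallen at each time). Fibroblast genes averaged 4.70, 5.03 and 4.61, with 5 of 15 risen at the midpoint, when the background guide was also higher. Their part in the result was not tested.

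**Figure D1:**
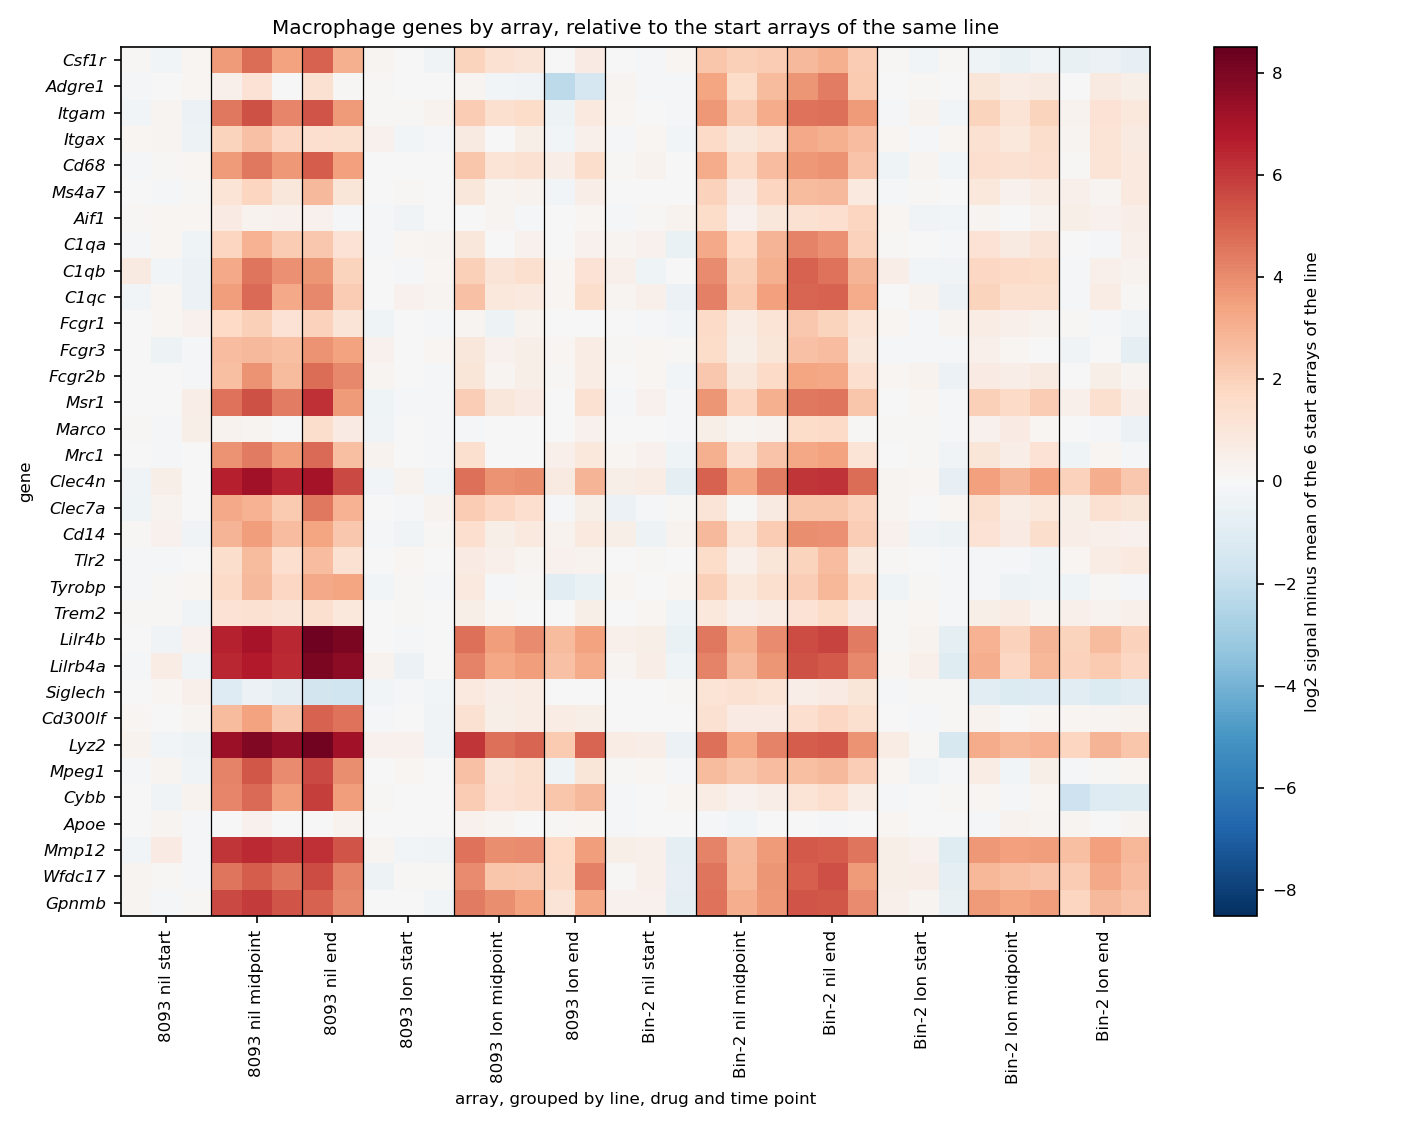
Log2 signal of each measured macrophage identity gene on each of the 34 arrays, minus the mean of the 6 start arrays of the same line; rows are genes by role and columns are arrays by course and time (nil, nilotinib; lon, lonafarnib). The nilotinib midpoint and end columns are raised over most rows in both lines, while the lonafarnib columns are raised in a smaller block of rows.

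**Figure D2:**
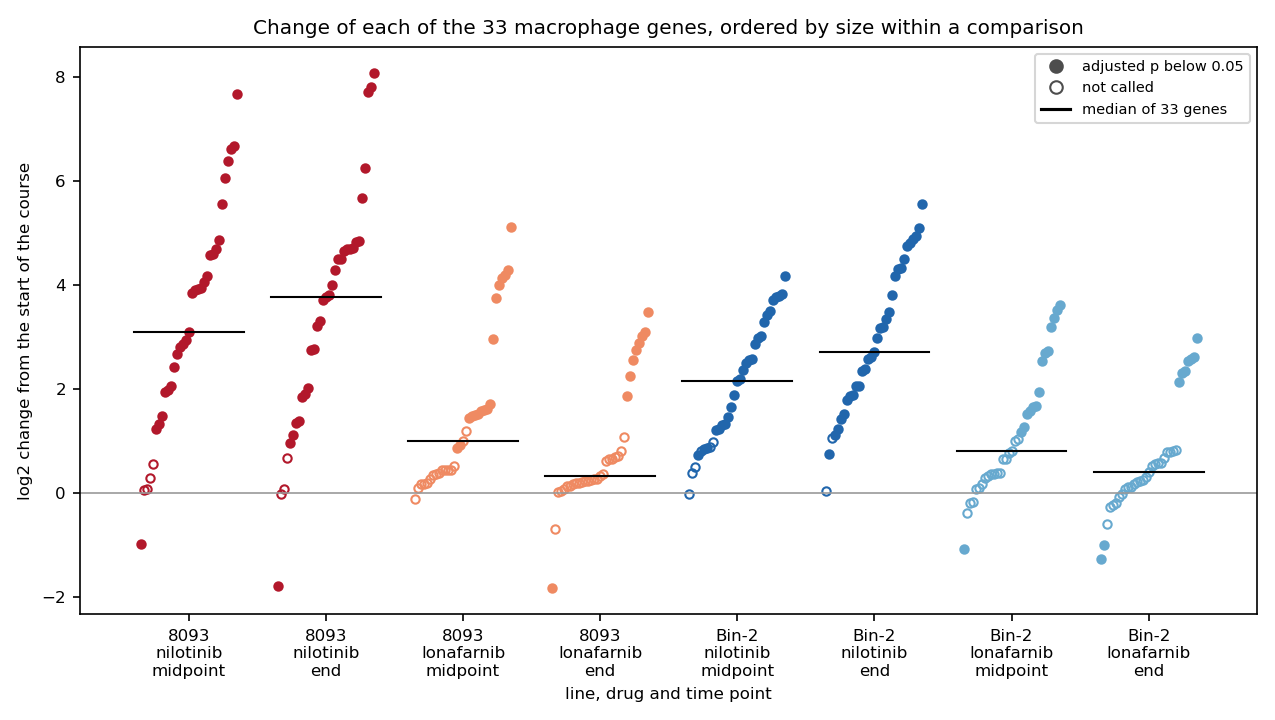
Log2 change of the 33 measured genes, each ordered by size within its comparison, with filled points for genes that passed, open points for those that did not and a bar at the median. The 8093 nilotinib changes have medians of 3.09 and 3.76 and the lonafarnib end changes medians of 0.34 in 8093 and 0.41 in Bin-2.

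Among the phagosome and killing effectors, Lyz2, the lysozyme of macrophages, changed most. Lyz2 read 5.16, 4.68 and 4.45 at the start, 12.18, 12.77 and 12.34 at the midpoint and 13.08 and 12.04 at the end of nilotinib in 8093. Under lonafarnib in 8093 it read 5.23, 5.25 and 4.56 at the start, 10.96, 9.56 and 9.85 at the midpoint and 7.12 and 9.87 at the end. All treated arrays lay above all starts in both courses, and the end arrays of lonafarnib lay far apart. The changes at midpoint and end were 7.67 ± 0.54 (adjusted p = 1.85e-12) and 7.80 ± 0.60 (adjusted p = 3.04e-12) with nilotinib and 5.11 ± 0.54 and 3.48 ± 0.60 (adjusted p = 0.000223) with lonafarnib. The last of these did not hold without end replicate 2, where it was 2.11 with an adjusted p of 0.0676.

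Bin-2 cells began with more Lyz2 than 8093 cells. Lyz2 read 8.0, 7.97 and 6.90 at the start, 12.09, 10.65 and 11.63 at the midpoint and 12.55, 12.61 and 11.22 at the end of nilotinib and 8.03, 7.47 and 6.00 at the start, 10.55, 10.20 and 10.36 at the midpoint and 9.20, 10.29 and 9.77 at the end of lonafarnib in Bin-2. The groups again did not overlap with their starts. The changes were 3.83 ± 0.54 and 4.50 ± 0.54 with nilotinib and 3.20 ± 0.54 and 2.59 ± 0.54 with lonafarnib, all with an adjusted p below the threshold (the largest was 0.00133).

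Mpeg1, a pore-forming protein that acts on engulfed bacteria, rose at the midpoint of every course except lonafarnib in Bin-2. In 8093 Mpeg1 read 4.97, 5.42 and 4.86 at the start, 9.36, 10.44 and 9.19 at the midpoint and 10.78 and 9.08 at the end of nilotinib, changes of 4.59 ± 0.36 and 4.85 ± 0.41. Under lonafarnib in 8093 it read 5.18, 5.34 and 5.16 at the start, 7.63, 6.27 and 6.52 at the midpoint and 4.78 and 6.15 at the end, a rise at the midpoint of 1.58 ± 0.36 (adjusted p = 0.00423) and an end that overlapped the start (0.24 ± 0.41 (adjusted p = 0.822)). Bin-2 arrays of nilotinib read 7.85, 7.95 and 7.68 at the start, 10.45, 10.11 and 10.40 at the midpoint and 10.31, 10.52 and 9.81 at the end, above the starts without overlap (2.50 ± 0.36 and 2.39 ± 0.36). With lonafarnib the values were 7.89, 7.47 and 7.67 at the start, 8.37, 7.54 and 8.26 at the midpoint and 7.55, 7.88 and 7.94 at the end, which overlap, and neither change passed (0.38 ± 0.36 (adjusted p = 0.516) and 0.11 ± 0.36 (adjusted p = 0.919)).

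Cybb, whose product makes superoxide in the phagosome, behaved differently in the lines. In 8093 it read 5.47, 5.19 and 5.84 at the start, 9.64, 10.34 and 9.07 at the midpoint and 11.39 and 9.05 at the end of nilotinib and 5.58, 5.51 and 5.48 at the start, 7.65, 6.74 and 6.95 at the midpoint and 7.88 and 8.29 at the end of lonafarnib. The changes at the end were 4.72 ± 0.39 (adjusted p = 1.63e-11) and 2.56 ± 0.39 (adjusted p = 4.69e-05). In Bin-2 it was already high, at 9.14, 9.22 and 9.42 at the start of nilotinib and 9.11, 9.23 and 9.31 at the start of lonafarnib. Neither nilotinib change passed there (0.50 ± 0.35 (adjusted p = 0.548) and 1.06 ± 0.35 (adjusted p = 0.0545)). At the end of lonafarnib the Bin-2 arrays read 7.50, 8.15 and 8.18, below all starts, a fall to 7.94 (-1.27 ± 0.35 (adjusted p = 0.018)). That fall did not pass without start replicate 2, start replicate 3 or end replicate 1.

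**Figure D3:**
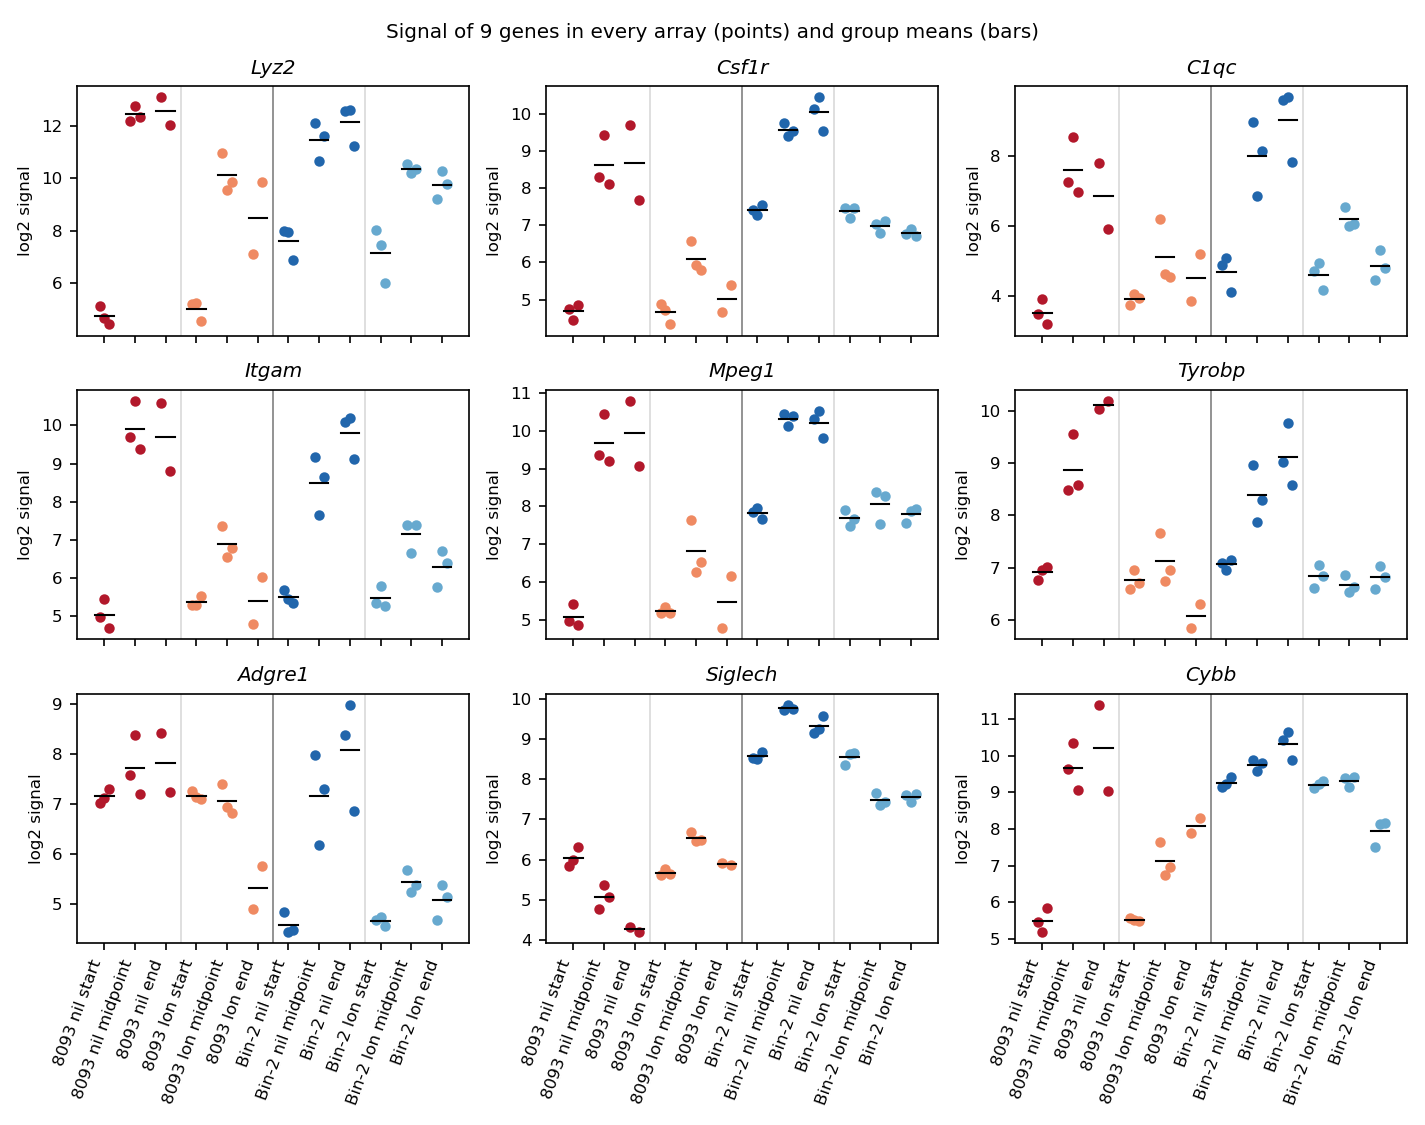
Log2 signal of 9 genes on each array (points) with the group mean (bars), by line, drug and time. Lyz2, C1qc and Itgam have midpoint means above the start in every course, while Siglech falls in 8093 under nilotinib and in Bin-2 under lonafarnib.

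Csf1r, the receptor through which macrophages receive their survival signal, rose with nilotinib and not at the end of lonafarnib. In 8093 it read 4.74, 4.44 and 4.87 at the start, 8.29, 9.44 and 8.11 at the midpoint and 9.70 and 7.67 at the end of nilotinib and 4.89, 4.73 and 4.34 at the start, 6.57, 5.93 and 5.78 at the midpoint and 4.68 and 5.38 at the end of lonafarnib. The nilotinib changes were 3.93 ± 0.33 (adjusted p = 7.62e-11) and 4.0 ± 0.37 (adjusted p = 2.16e-10), and the lonafarnib midpoint change was 1.44 ± 0.33 (adjusted p = 0.0044), with the end at 0.37 ± 0.37 (adjusted p = 0.651). In Bin-2 the starts were higher: Csf1r read 7.41, 7.29 and 7.55 at the start, 9.76, 9.40 and 9.54 at the midpoint and 10.14, 10.44 and 9.54 at the end of nilotinib, without overlap, and 7.47, 7.20 and 7.47 at the start, 7.04, 6.80 and 7.13 at the midpoint and 6.77, 6.91 and 6.70 at the end of lonafarnib. Nilotinib gave 2.15 ± 0.33 (adjusted p = 0.000117) and 2.63 ± 0.33 (adjusted p = 1.42e-06) there. The lonafarnib arrays lay below the starts without overlap at both times, by -0.39 ± 0.33 and -0.58 ± 0.33, but neither passed (adjusted p = 0.468 and 0.359).

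Itgam, the CD11b chain of complement receptor 3, is shared by macrophages and neutrophils. In 8093 Itgam read 4.99, 5.44 and 4.69 at the start, 9.69, 10.63 and 9.39 at the midpoint and 10.58 and 8.81 at the end of nilotinib, rises of 4.86 ± 0.40 (adjusted p = 4.62e-11) and 4.66 ± 0.45 (adjusted p = 4.4e-10) without overlap. With lonafarnib it read 5.30, 5.30 and 5.53 at the start, 7.36, 6.56 and 6.80 at the midpoint and 4.79 and 6.02 at the end, a rise of 1.53 ± 0.40 (adjusted p = 0.0117) at the midpoint and no called change at the end (0.03 ± 0.45 (adjusted p = 0.987)). The midpoint rise did not pass without start replicate 1 or without midpoint replicate 1. In Bin-2 Itgam read 5.69, 5.46 and 5.36 at the start, 9.18, 7.65 and 8.65 at the midpoint and 10.10, 10.18 and 9.12 at the end of nilotinib and 5.35, 5.79 and 5.28 at the start, 7.40, 6.65 and 7.39 at the midpoint and 5.76, 6.71 and 6.39 at the end of lonafarnib. The rises were 2.99 ± 0.40 and 4.30 ± 0.40 with nilotinib and 1.67 ± 0.40 at the lonafarnib midpoint, with an end value of 0.81 ± 0.40 (adjusted p = 0.268) that did not pass.

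Adgre1 differed between the lines from the start on. In 8093, it read 7.58, 8.38 and 7.19 at the nilotinib midpoint and 8.42 and 7.23 at the end, and neither change passed (0.57 ± 0.40 (adjusted p = 0.242) and 0.67 ± 0.44 (adjusted p = 0.228)). With lonafarnib it read 7.25, 7.13 and 7.11 at the start, 7.39, 6.94 and 6.83 at the midpoint and 4.90 and 5.76 at the end, a fall at the end of -1.83 ± 0.44 (adjusted p = 0.00731) that did not pass without end replicate 1. In Bin-2 Adgre1 began at 4.84, 4.45 and 4.48 and read 7.97, 6.18 and 7.30 at the nilotinib midpoint and 8.38, 8.98 and 6.87 at the end, rises of 2.56 ± 0.40 (adjusted p = 0.000108) and 3.49 ± 0.40 (adjusted p = 2.12e-07). Under lonafarnib Bin-2 read 4.69, 4.75 and 4.57 at the start, 5.69, 5.24 and 5.38 at the midpoint and 4.69, 5.39 and 5.15 at the end, and neither change passed (0.77 ± 0.40 (adjusted p = 0.191) and 0.41 ± 0.40 (adjusted p = 0.655)).

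The other 4 surface genes are given by their group means, or by array where they passed between midpoint and end. Cd68, a lysosomal membrane protein of macrophages, rose from 5.40 to 9.32 and 9.69 with nilotinib in 8093 and from 6.31 to 8.68 and 9.49 in Bin-2. Under lonafarnib Cd68 rose at the midpoint in both lines (1.62 ± 0.39 in 8093, lost without midpoint replicate 1, and 1.51 ± 0.39 in Bin-2) and did not pass at either end. Itgax, the CD11c chain of dendritic cells and tissue macrophages, was highest at the end of nilotinib in Bin-2, at 7.82, 7.61 and 7.24 from starts of 4.53, 4.79 and 4.38 (2.99 ± 0.25 (adjusted p = 7.21e-10)), and it rose from midpoint to end in that course by 1.67 ± 0.25 (adjusted p = 0.000117). In 8093 Itgax went the other way between those times, from 6.74, 7.32 and 6.57 to 6.27 and 6.16, a fall of -0.66 ± 0.28 (adjusted p = 0.045) that was lost without midpoint replicate 2, end replicate 1 or end replicate 2. Ms4a7, a membrane-spanning protein of mature macrophages, and Aif1, the actin-binding protein Iba1, stayed dim, with highest group means of 5.35 and 5.39, both at the Bin-2 nilotinib end, where both had risen (2.06 ± 0.39 and 1.42 ± 0.19).

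The 3 chains of C1q, the complement recognition protein made chiefly by macrophages, are encoded side by side and were read by separate probesets. In 8093 under nilotinib C1qa read 5.10, 5.36 and 4.81 at the start, 7.03, 8.14 and 7.35 at the midpoint and 7.48 and 6.42 at the end. C1qb read 4.72, 3.68 and 3.44 at the start, 7.12, 8.47 and 7.80 at the midpoint and 7.65 and 5.80 at the end in that course. C1qc read 3.48, 3.92 and 3.20 at the start, 7.25, 8.54 and 6.96 at the midpoint and 7.79 and 5.92 at the end. All 3 lay above their starts without overlap at both times, and each was highest on midpoint replicate 2. The changes at the midpoint were 2.42 ± 0.41, 3.85 ± 0.49 and 4.05 ± 0.53 for C1qa, C1qb and C1qc, and at the end 1.86 ± 0.46, 2.78 ± 0.55 and 3.32 ± 0.59. All 6 passed, but C1qa at the end was 1.33 with an adjusted p of 0.073 without end replicate 1.

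With lonafarnib in 8093 only C1qb of the C1q chains passed, at the midpoint. C1qc read 3.76, 4.06 and 3.95 at the start, 6.19, 4.64 and 4.54 at the midpoint and 3.87 and 5.20 at the end, and neither change passed (1.20 ± 0.53 (adjusted p = 0.161) and 0.61 ± 0.59 (adjusted p = 0.638)). C1qb read 3.88, 3.77 and 4.09 at the start, 5.95, 5.00 and 5.31 at the midpoint and 4.08 and 5.15 at the end, a rise at the midpoint of 1.51 ± 0.49 (adjusted p = 0.0462) that did not pass when any 1 of the 6 arrays was left out. C1qa read 5.11, 5.36 and 5.44 at the start, 6.19, 5.23 and 5.55 at the midpoint and 5.13 and 5.55 at the end, with overlap at both times and no call (0.35 ± 0.41 (adjusted p = 0.717) and 0.04 ± 0.46 (adjusted p = 0.98)).

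In Bin-2 the C1q chains reached their highest levels at the end of nilotinib. C1qa read 5.65, 5.80 and 4.90 at the start, 8.65, 7.13 and 8.33 at the midpoint and 9.64, 9.31 and 7.42 at the end in that course. C1qb read 4.88, 4.06 and 4.43 at the start, 8.47, 6.47 and 7.50 at the midpoint and 9.50, 9.08 and 7.34 at the end, and C1qc read 4.88, 5.09 and 4.13 at the start, 8.95, 6.87 and 8.15 at the midpoint and 9.58, 9.67 and 7.84 at the end. All treated arrays lay above all starts, and end replicate 3 was the lowest of its group for all 3 chains. At the end the changes were 3.34 ± 0.41 (adjusted p = 7.35e-07), 4.18 ± 0.49 (adjusted p = 4.16e-07) and 4.33 ± 0.53 (adjusted p = 7.35e-07). With lonafarnib C1qa read 5.57, 5.49 and 5.30 at the start, 6.67, 6.24 and 6.56 at the midpoint and 5.40, 5.38 and 5.91 at the end, C1qb 4.99, 4.22 and 4.16 at the start, 6.24, 6.07 and 6.04 at the midpoint and 4.30, 4.86 and 4.74 at the end and C1qc 4.72, 4.95 and 4.18 at the start, 6.55, 6.00 and 6.04 at the midpoint and 4.46, 5.31 and 4.79 at the end. C1qb and C1qc rose at that midpoint (1.66 ± 0.49 (adjusted p = 0.0203) and 1.58 ± 0.53 (adjusted p = 0.0384)), the C1qc call being lost when any 1 of the 6 arrays was left out and the C1qb call without start replicate 2, start replicate 3 or midpoint replicate 2, and the end overlapped the start for all 3 chains, with no call.

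The Fc receptors bind antibody and are shared with mast cells and, for Fcgr2b, with B cells. Fcgr3, Fcgr2b and Fcgr1 all rose at both times of nilotinib in 8093, the largest being Fcgr2b at 4.50 ± 0.41 (adjusted p = 1.16e-10), from 4.97 ± 0.07 (SD, n = 3) to 9.48 (n = 2). In Bin-2 all 3 rose by the end of nilotinib (2.71 ± 0.37 for Fcgr2b, 1.89 ± 0.28 for Fcgr3 and 1.87 ± 0.25 for Fcgr1), and at the midpoint Fcgr3 did not pass (0.89 ± 0.28 (adjusted p = 0.0721)). Lonafarnib was followed by 0 called changes of the 3 in either line at either time in limma, and 0 of 3 passed an unadjusted p of 0.05. Fcgr2b and Fcgr3 are similar in sequence, and their probes may not read them separately.

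Of the pattern recognition and scavenger receptors, Clec4n, the lectin dectin-2, changed most. Clec4n read 3.95, 4.79 and 4.20 at the start, 10.85, 11.37 and 10.76 at the midpoint and 11.30 and 9.85 at the end of nilotinib in 8093, with changes of 6.68 ± 0.49 (adjusted p = 4.41e-12) and 6.26 ± 0.55 (adjusted p = 5.19e-11). In Bin-2 it read 5.47, 5.59 and 4.12 at the start, 10.02, 8.27 and 9.42 at the midpoint and 11.06, 11.11 and 9.70 at the end of nilotinib, with changes of 4.17 ± 0.49 (adjusted p = 2.08e-06) and 5.56 ± 0.49 (adjusted p = 2.44e-09). Lonafarnib was also followed by a rise at both times: 8093 read 4.04, 4.53 and 4.06 at the start, 8.92, 8.11 and 8.19 at the midpoint and 5.04 and 7.13 at the end, and Bin-2 read 5.21, 5.15 and 4.30 at the start, 8.44, 7.83 and 8.48 at the midpoint and 6.92, 8.10 and 7.28 at the end. These changes were 4.19 ± 0.49 and 1.87 ± 0.55 in 8093 and 3.36 ± 0.49 and 2.54 ± 0.49 in Bin-2. The end call in 8093 was lost without start replicate 1 or start replicate 3, and it also rested on end replicate 2.

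Mrc1, the mannose receptor, rose at both times of nilotinib in both lines. It read 5.39, 5.25 and 5.31 at the start, 9.16, 9.75 and 8.86 at the midpoint and 10.17 and 7.88 at the end in 8093 (3.94 ± 0.49 (adjusted p = 7.61e-08) and 3.71 ± 0.54 (adjusted p = 1.13e-06)) and 6.39, 6.52 and 5.79 at the start, 9.23, 7.47 and 8.58 at the midpoint and 9.48, 9.61 and 7.38 at the end in Bin-2 (2.19 ± 0.49 (adjusted p = 0.0062) and 2.59 ± 0.49 (adjusted p = 0.000395)). None of its 4 lonafarnib changes passed, the largest being 0.99 ± 0.49 (adjusted p = 0.168) at the Bin-2 midpoint. Msr1, a scavenger receptor for modified lipoproteins, rose at both times of nilotinib in both lines (4.70 ± 0.60 in 8093 and 3.81 ± 0.53 in Bin-2 at the end) and at the Bin-2 lonafarnib midpoint (1.95 ± 0.53 (adjusted p = 0.0121)). Clec7a, the beta-glucan receptor dectin-1, rose by 3.76 ± 0.34 in 8093 and 2.35 ± 0.30 in Bin-2 by the end of nilotinib, and in Bin-2 most of that came after the midpoint (1.54 ± 0.30 (adjusted p = 0.00409) from midpoint to end, arrays 5.27, 4.33 and 4.99 and then 6.53, 6.56 and 6.14). Cd14 and Tlr2, which sense bacterial products, rose by the end of nilotinib in both lines (2.75 ± 0.44 and 2.02 ± 0.37 in 8093, 3.20 ± 0.39 and 1.80 ± 0.33 in Bin-2). Marco, a scavenger receptor of resident macrophages, stayed near the background guide, with its highest mean of 5.75 at the 8093 nilotinib end.

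The adaptor Tyrobp (DAP12) carries the signal of Trem2, Siglech and other receptors without signalling tails of their own. Tyrobp read 6.76, 6.96 and 7.01 at the start, 8.49, 9.57 and 8.58 at the midpoint and 10.05 and 10.19 at the end of nilotinib in 8093, rises of 1.97 ± 0.27 (adjusted p = 5.49e-07) and 3.22 ± 0.31 (adjusted p = 3.07e-10) without overlap. With lonafarnib in 8093 it read 6.60, 6.96 and 6.70 at the start, 7.67, 6.75 and 6.94 at the midpoint and 5.84 and 6.29 at the end, and the end lay below all starts without passing (-0.69 ± 0.31 (adjusted p = 0.187)). In Bin-2 it read 7.10, 6.96 and 7.14 at the start, 8.98, 7.88 and 8.30 at the midpoint and 9.03, 9.78 and 8.59 at the end of nilotinib and 6.61, 7.06 and 6.84 at the start, 6.86, 6.52 and 6.63 at the midpoint and 6.60, 7.04 and 6.81 at the end of lonafarnib. The nilotinib rises were 1.32 ± 0.27 (adjusted p = 0.00316) and 2.07 ± 0.27 (adjusted p = 2.65e-06), the first of which was 1.02 with an adjusted p of 0.0607 without midpoint replicate 1, and the lonafarnib groups overlapped their starts.

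Lilr4b and Lilrb4a, paired immunoglobulin-like receptors that mast cells carry as well as macrophages, rose at both times of every course. Lilr4b read 4.41, 4.04 and 4.75 at the start, 10.93, 11.34 and 10.79 at the midpoint and 12.60 and 12.36 at the end of nilotinib in 8093, a change of 8.08 ± 0.42 (adjusted p = 3.9e-16) at the end. Under lonafarnib it read 4.31, 4.27 and 4.39 at the start, 9.05, 7.91 and 8.41 at the midpoint and 7.04 and 7.80 at the end in 8093 (4.13 ± 0.38 and 3.10 ± 0.42). In Bin-2 it read 5.87, 5.93 and 4.88 at the start, 9.92, 8.47 and 9.43 at the midpoint and 10.98, 11.15 and 9.86 at the end of nilotinib (5.10 ± 0.38 at the end) and 5.54, 5.71 and 4.60 at the start, 8.35, 7.37 and 8.33 at the midpoint and 7.28, 8.08 and 7.40 at the end of lonafarnib (2.31 ± 0.38 at the end). No treated array overlapped a start in these courses. The Lilrb4a values ran close to those of Lilr4b, with end changes of 7.72 ± 0.44, 2.88 ± 0.44, 4.76 ± 0.39 and 2.13 ± 0.39, and the genes are near-identical copies that the probes may not separate.

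Siglech fell with nilotinib in 8093 and with lonafarnib in Bin-2, and rose with nilotinib in Bin-2 and at the lonafarnib midpoint of 8093. It read 5.85, 6.00 and 6.30 at the start, 4.76, 5.37 and 5.07 at the midpoint and 4.33 and 4.20 at the end of nilotinib in 8093, changes of -0.98 ± 0.14 (adjusted p = 5.03e-07) and -1.79 ± 0.15 (adjusted p = 2.64e-11). With lonafarnib it rose at the midpoint in that line, reading 5.60, 5.77 and 5.65 at the start, 6.68, 6.46 and 6.48 at the midpoint and 5.92 and 5.86 at the end (0.87 ± 0.14 (adjusted p = 6.34e-05) and 0.22 ± 0.15 (adjusted p = 0.466)). In Bin-2 the drugs had the opposite signs: with nilotinib it read 8.53, 8.50 and 8.67 at the start, 9.73, 9.85 and 9.75 at the midpoint and 9.15, 9.24 and 9.57 at the end (1.21 ± 0.14 (adjusted p = 1.2e-06) and 0.75 ± 0.14 (adjusted p = 0.000227)), and with lonafarnib 8.37, 8.63 and 8.65 at the start, 7.65, 7.37 and 7.44 at the midpoint and 7.60, 7.43 and 7.63 at the end (-1.07 ± 0.14 (adjusted p = 9.57e-06) and -1.0 ± 0.14 (adjusted p = 4.42e-06)). None of these changed groups overlapped its start. Of 8 dendritic cell genes 1 rose and 2 fell at the midpoint and 3 fell at the end of nilotinib in 8093. There 22.6% of all genes rose and 27.5% fell at the midpoint, and 24.9% fell at the end. In Bin-2 1 rose at each time of nilotinib (1.87% and 4.95% of all genes). With lonafarnib 1 fell at each time in either line, where 6.9% and 4.31% of all genes fell in 8093 and 12% and 3.41% in Bin-2. Whether these genes track Siglech was not tested.

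Cd300lf, an inhibitory receptor of myeloid cells that mast cells also carry, rose in 8093 both by the midpoint and after it. It read 5.06, 4.84 and 5.12 at the start, 7.57, 8.34 and 7.16 at the midpoint and 9.90 and 9.53 at the end of nilotinib in 8093, and the rise from midpoint to end, 2.02 ± 0.23 (adjusted p = 2.37e-08), was the largest of the 33 genes in that comparison. In Bin-2 it read 5.99, 5.93 and 5.99 at the start, 7.25, 6.64 and 6.63 at the midpoint and 7.39, 7.74 and 7.32 at the end of nilotinib, with rises of 0.87 ± 0.21 (adjusted p = 0.013) and 1.51 ± 0.21 (adjusted p = 5.4e-06). The 8 genes that rose between midpoint and end in 8093 were Cd300lf, Lilr4b, Lilrb4a, Fcgr2b, Fcgr3, Tyrobp, Clec7a and Marco, a smaller share than the 26.7% of all genes. Without end replicate 1 only 3 rose, and Clec7a, Lilrb4a, Fcgr3, Fcgr2b and Marco lost the call. Mast cell genes rose between the same arrays, with 10 of 13 up, 1 down and a median change of 2.57. Trem2, a lipid-sensing receptor of tissue macrophages, changed less, by 1.13 ± 0.21 at the end in 8093 and 1.23 ± 0.19 in Bin-2.

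Of the secreted and lipid-associated products, Mmp12, Gpnmb and Wfdc17 rose in every course at both times. Mmp12, macrophage elastase, read 4.95, 5.90 and 5.05 at the start, 11.30, 11.52 and 11.27 at the midpoint and 11.40 and 10.55 at the end of nilotinib and 5.41, 4.99 and 4.91 at the start, 9.80, 9.18 and 9.21 at the midpoint and 6.91 and 8.79 at the end of lonafarnib in 8093. In Bin-2 it read 7.13, 7.08 and 5.82 at the start, 10.87, 9.40 and 10.25 at the midpoint and 11.85, 11.82 and 11.18 at the end of nilotinib and 7.17, 7.02 and 5.64 at the start, 10.35, 10.11 and 10.20 at the midpoint and 9.18, 10.11 and 9.46 at the end of lonafarnib. The end changes were 5.68 ± 0.47, 2.74 ± 0.47, 4.94 ± 0.42 and 2.98 ± 0.42 in that order, and no group overlapped its start. At the lonafarnib midpoint of Bin-2 Mmp12 held the largest change of the 33 genes (3.61 ± 0.42 (adjusted p = 2.85e-06)).

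Gpnmb, a lysosomal glycoprotein of lipid-laden macrophages, read 6.21, 6.18 and 5.08 at the start, 10.47, 8.88 and 9.52 at the midpoint and 11.15, 11.11 and 9.86 at the end of nilotinib in Bin-2 and 6.23, 6.04 and 5.19 at the start, 9.42, 9.19 and 9.39 at the midpoint and 7.67, 8.58 and 8.23 at the end of lonafarnib. The changes were 3.80 ± 0.43 and 4.88 ± 0.43 with nilotinib and 3.51 ± 0.43 and 2.34 ± 0.43 with lonafarnib, and all 4 passed. In 8093 the end changes were 4.49 ± 0.48 and 2.25 ± 0.48, the latter resting on end replicate 2. Wfdc17, a secreted protein of activated macrophages, read 3.27, 3.86 and 3.86 at the start, 7.76, 6.09 and 6.00 at the midpoint and 5.37 and 8.0 at the end of lonafarnib in 8093, with end replicates far apart (3.03 ± 0.62 (adjusted p = 0.0015), lost without end replicate 2). In the other courses its end changes were 4.83 ± 0.62 with nilotinib in 8093, 4.81 ± 0.55 with nilotinib in Bin-2 and 2.61 ± 0.55 with lonafarnib in Bin-2.

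Apoe, the apolipoprotein that macrophages secrete, did not pass in any of the 12 comparisons over time. Its group means ran from 6.30 to 6.73, a range of 0.44, the smallest of the 33 genes. The largest change was 0.26 ± 0.13 (adjusted p = 0.205) at the 8093 lonafarnib midpoint.

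Direct tests of the drugs against each other used the change of each course from its own start. Since the doses and days of the drugs differ, they compare these courses and not the drugs at matched doses. In 8093 the nilotinib change exceeded the lonafarnib change for 25 genes at the midpoint and 28 at the end, and 1 gene, Siglech, went the other way at both, where 9.19% and 15.7% of all genes were higher and 17.6% and 17.4% lower. The median difference was 1.96 at the midpoint and 2.71 at the end. Mrc1 differed most at the midpoint (3.49 ± 0.69 (adjusted p = 0.000339)) and Lilr4b at the end (4.98 ± 0.59 (adjusted p = 5.99e-08)). At the end the count was 17 without nilotinib end replicate 1.

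In Bin-2 more genes differed between the courses at the end than at the midpoint; the change in that count was not tested. At the midpoint 4 genes, Csf1r, Siglech, Mpeg1 and Tyrobp, had larger changes with nilotinib and 0 smaller (11 and 0 at an unadjusted p below 0.05), where 1.04% and 0.441% of all genes were called, and the median difference was 0.86. The largest was Csf1r at 2.54 ± 0.47 (adjusted p = 0.00373), and the count fell to 2 when any 1 of 8 arrays was left out. At the end 28 genes had larger changes with nilotinib and 0 smaller (32 and 0 unadjusted), where 4.65% and 4.86% of all genes were called, with a median of 2.31. C1qc, C1qb and Itgam led (4.09 ± 0.75, 4.01 ± 0.70 and 3.49 ± 0.57). Lyz2 (1.92 ± 0.76 (adjusted p = 0.118)), Wfdc17 (2.20 ± 0.78 (adjusted p = 0.0752)), Ms4a7, Tlr2 and Apoe did not pass.

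Tests between the lines used the same drug, at different doses. With nilotinib at the midpoint 15 genes gained less in Bin-2 than in 8093 and 2, Siglech and Adgre1, gained more, where 8.01% and 18% of all genes did, and the median difference was -1.44. Lyz2 and Cybb differed most (-3.84 ± 0.76 (adjusted p = 0.000289) and -3.68 ± 0.49 (adjusted p = 2.12e-06)). At the end 11 gained less and 4 more, where 15% and 15.6% of all genes did, with a median of -0.36. The 4 were Adgre1 (2.82 ± 0.59 (adjusted p = 0.000356)), Siglech (2.54 ± 0.20), Itgax (1.60 ± 0.37) and Aif1 (1.44 ± 0.29). The count of 11 was 7 without 8093 nilotinib end replicate 1, and the Csf1r difference, -1.37 ± 0.50 (adjusted p = 0.0359), became -0.36 with an adjusted p of 0.642. Of the genes with higher starts in Bin-2, Cybb, Lyz2, Mpeg1, Cd300lf, Csf1r, Lilr4b, Lilrb4a and Fcgr3 gained less there by the end. Siglech gained more, and Gpnmb, Mmp12 and Cd68 did not pass. The starts enter the difference.

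With lonafarnib the lines differed for few of the genes. At the midpoint 2 gained less in Bin-2, Csf1r (-1.83 ± 0.47 (adjusted p = 0.0215)) and Siglech (-1.94 ± 0.19 (adjusted p = 1.85e-07)), and 0 more (1 higher and 8 lower at an unadjusted p below 0.05), where 3.36% and 0.843% of all genes did. At the end Adgre1 was 2.24 ± 0.59 (adjusted p = 0.0227) higher in Bin-2, and Cybb (-3.84 ± 0.52 (adjusted p = 1.28e-05)) and Siglech (-1.21 ± 0.20 (adjusted p = 0.000237)) lower, where 2.12% and 2.49% of all genes were called. The medians were -0.11 and -0.12.

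**Figure D4:**
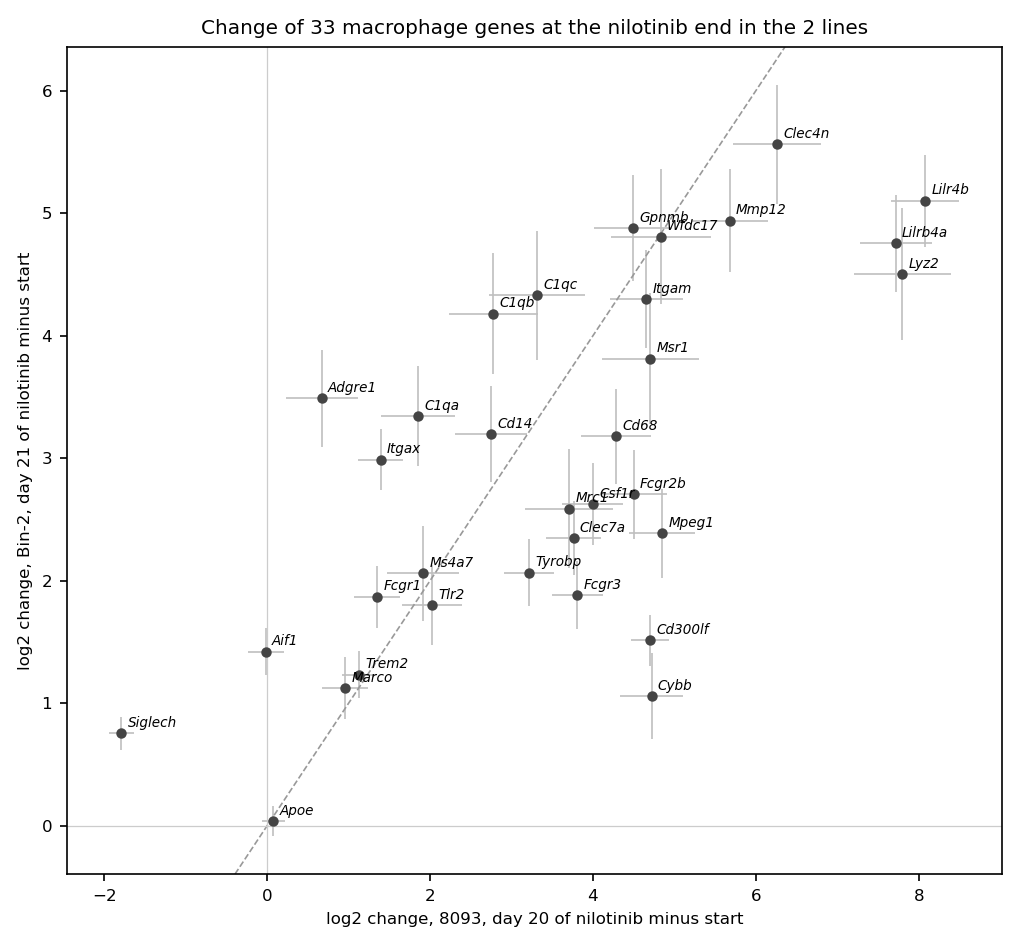
Log2 change from start to end of nilotinib for each of the 33 genes, 8093 (day 20) on the x axis and Bin-2 (day 21) on the y axis, with the line of equal change (dashed) and bars of 1 SE from limma. Lilr4b, Lyz2, Cd300lf and Cybb lie below the line and Adgre1, Siglech and Itgax above it.

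The genes moved together between plates of a group as well as between groups. Midpoint replicate 2 held the highest value of its 3 plates for 30 of the 33 genes with nilotinib in 8093, and end replicate 1 the higher of its 2 for 31. In Bin-2 midpoint replicate 1 was highest and replicate 2 lowest for 31 genes each, and end replicate 3 was lowest for 30. At the starts no plate was highest for more than 16 of the genes. In Bin-2, however, start replicate 3 was lowest for 18 genes in the nilotinib course and for 19 in the lonafarnib course. The median SD of the 33 genes was 0.74 at the 8093 nilotinib end, 0.70 at the Bin-2 nilotinib midpoint and 0.73 at the Bin-2 nilotinib end, against 0.13, 0.12 and 0.15 over all genes, and 0.15 to 0.23 at the starts. The 2 end plates of nilotinib in 8093 had macrophage means of 8.91 and 7.82 and the same mast cell mean of 10.89. The model has 1 variance per gene over all groups.

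**Figure D5:**
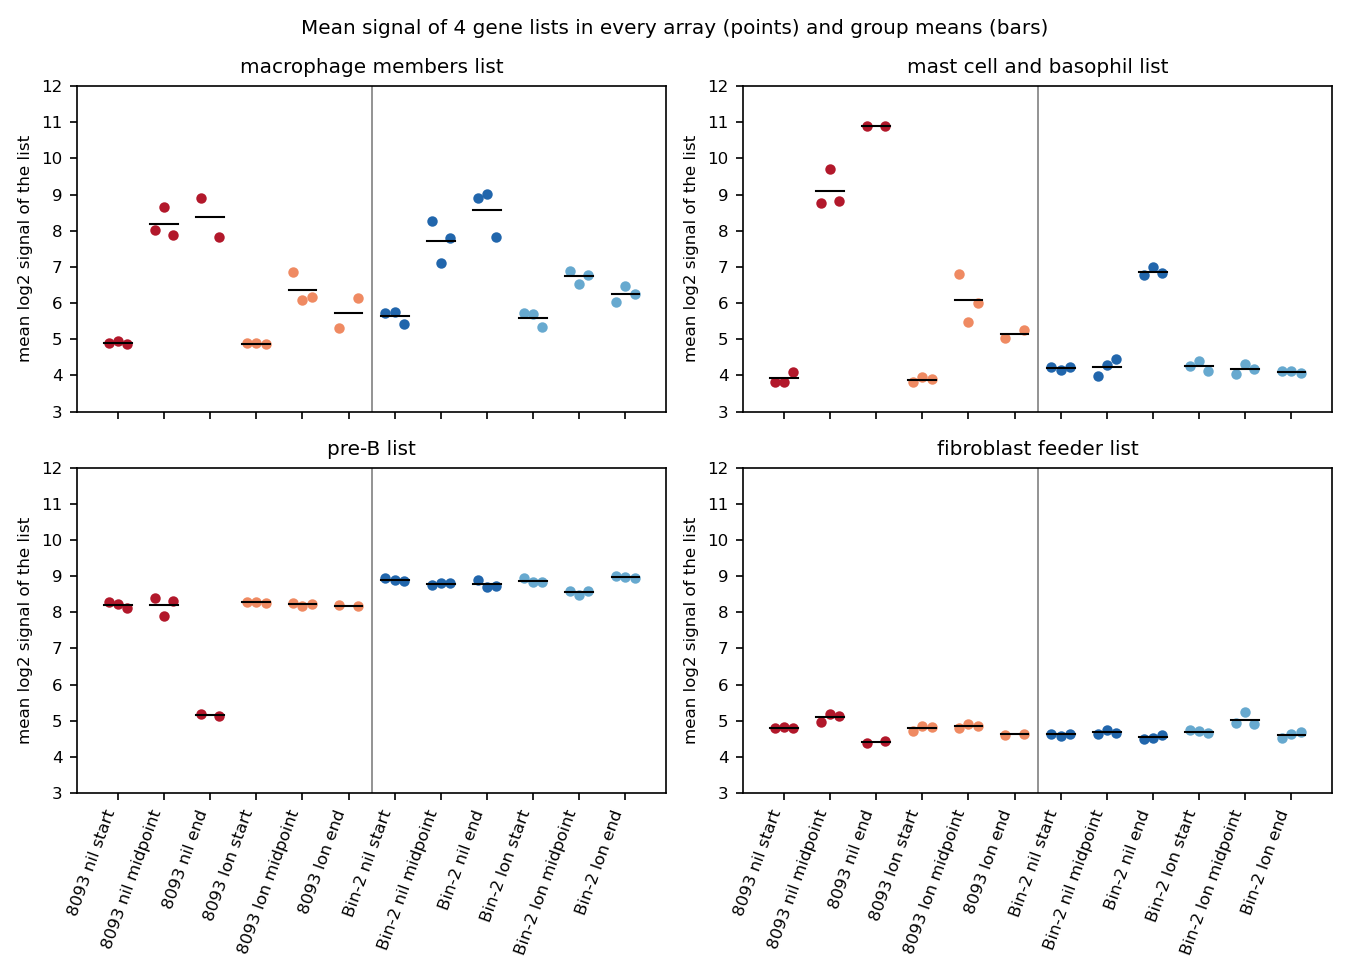
Mean log2 signal of the 33 macrophage genes, 14 pre-B genes, 13 mast cell and basophil genes and 15 fibroblast genes on each array (points), by course and time. The mast list is at 3.92, 9.11 and 10.89 along nilotinib in 8093 and at 4.21, 4.23 and 6.87 in Bin-2, while the macrophage list is at 4.91, 8.19 and 8.37 and at 5.64, 7.73 and 8.58.

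A further 6 lists describe the rest of the myeloid programme. Of 15 measured myeloid transcription factors, 8 rose at the midpoint and 9 at the end of nilotinib in 8093, with 0 and 2 falls. In those comparisons 22.6% and 19.6% of all genes rose and 27.5% and 24.9% fell. In Bin-2 0 rose at the midpoint (3 higher at an unadjusted p below 0.05 in limma) and 6 at the end, with 0 falls. There 1.87% and 4.95% of all genes rose. Spi1 itself was at 7.70 at the 8093 start and did not pass at the midpoint (-0.08 ± 0.19 (adjusted p = 0.757)). At the end it rose by 1.05 ± 0.22 (adjusted p = 0.000165) in 8093 and did not pass in Bin-2 (0.47 ± 0.19 (adjusted p = 0.139)). Cebpb rose by 2.00 ± 0.33 and 1.44 ± 0.29 at those ends, and Mitf, a factor of macrophages and mast cells, by 5.03 ± 0.28 and 1.44 ± 0.25. Irf8, which directs monocyte and dendritic cell fate, fell in 8093 (-1.14 ± 0.18 (adjusted p = 2.92e-06)). Against the start of lonafarnib 1 factor passed, Irf8 at the 8093 midpoint (0.64 ± 0.16 (adjusted p = 0.00796)), where 3.89% of all genes rose.

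Of the 12 genes for engulfing dying cells, 5 rose and 0 fell by the midpoint of nilotinib in 8093, and 7 rose and 2 fell by its end. At those times 22.6% and 19.6% of all genes rose and 27.5% and 24.9% fell. In Bin-2 5 and 8 rose and none fell (1.87% and 4.95% of all genes rose; at an unadjusted p below 0.05 in limma, 0 were lower at either time). Cd36, a lipid scavenger receptor, was at 2.57 ± 0.42 and 3.36 ± 0.38 at the ends and also rose at the lonafarnib midpoints (1.81 ± 0.38 and 2.27 ± 0.38). Mertk, the receptor that macrophages use for apoptotic cells, rose by 2.15 ± 0.38 and 2.45 ± 0.34 at the nilotinib ends. Of 8 monocyte genes 7 rose and 1 fell at both times in 8093 with nilotinib, and 3 and then 6 rose in Bin-2. F13a1 was 8.68 ± 0.39 (adjusted p = 1.04e-17) higher at the 8093 end and 4.81 ± 0.35 (adjusted p = 3.89e-11) at the Bin-2 end. Ccr2 was already at 10.35 at the Bin-2 start, against 4.57 in 8093, and it rose with nilotinib in 8093 (3.28 ± 0.32, against -0.55 ± 0.29 (adjusted p = 0.285) in Bin-2), and it fell at the lonafarnib end of Bin-2 (-3.06 ± 0.29 (adjusted p = 7.5e-09)).

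Of 12 growth factor and receptor genes, 8 rose and 1 fell at the 8093 nilotinib midpoint, 6 rose and 1 fell at its end, and 1 and then 4 rose in Bin-2. For this list and the next 2, the shares of all genes that rose were 22.6% and 19.6% in 8093 and 1.87% and 4.95% in Bin-2. In 8093 27.5% and 24.9% of all genes fell. Csf1, the ligand of Csf1r, rose by 0.98 ± 0.18 and 0.73 ± 0.20 in 8093 and by 1.14 ± 0.18 at the Bin-2 end, but stayed low, at 5.62 there. Il34, the other ligand, did not pass in any comparison with the start. Kit, the stem cell factor receptor, which mast cells carry among other cells, rose by 6.90 ± 0.20 in 8093 and 1.23 ± 0.18 in Bin-2 at the nilotinib ends. It fell at the lonafarnib end of Bin-2 (-2.44 ± 0.18 (adjusted p = 3.79e-11)). Of 10 oxidase and Fc signalling genes 8 rose at the 8093 nilotinib end, 2 fell, and 4 rose at the Bin-2 end; Ncf1, the cytosolic partner of Cybb, was at 2.74 ± 0.24 and 1.82 ± 0.21. Of 12 inflammatory mediators 8 and 5 rose in 8093 and 4 and 3 in Bin-2 at the 2 times of nilotinib. Il1b was at 2.28 ± 0.35 and 3.61 ± 0.31 at the ends, and Tnf did not pass in any nilotinib comparison with the start.

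Neutrophils share some of the macrophage genes, and their markers are given here. Of 12 neutrophil genes 6 rose and 0 fell at the 8093 nilotinib midpoint, 3 rose and 2 fell at the end, and in Bin-2 2 rose at each time and 1 fell at the end. Of all genes 22.6% and 19.6% rose at those times in 8093 and 1.87% and 4.95% in Bin-2, and 24.9% and 3.94% fell at the ends. The largest rises were Mmp8 (3.52 ± 0.41 and 3.54 ± 0.37 at the ends) and Mmp9 (2.18 ± 0.51 and 3.76 ± 0.46), which macrophages also make. S100a8, a defining neutrophil product, rose in 8093 from 3.72 to 4.46 at the midpoint and 4.46 at the end, levels below the background guide. The part of neutrophils in the rise of the macrophage genes was not tested.

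By group, the levels of the 33 genes were highest at the end of nilotinib in Bin-2 for 15 genes and at the end of nilotinib in 8093 for 12. The remaining 6 peaked at the 8093 nilotinib midpoint (3), the Bin-2 nilotinib midpoint (2) and the 8093 lonafarnib midpoint (1). The means of all 33 at the nilotinib ends were 8.37 in 8093 and 8.58 in Bin-2, and those at the lonafarnib ends 5.72 and 6.25. Fewer genes lay below the background guide after treatment: 2 at both nilotinib times in 8093 and 0 in Bin-2, against 8 and 5 at the lonafarnib ends.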

How the data were processed

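The 34 arrays were Affymetrix Mouse Gene 1.0 ST. The values are the log2 probeset signals that the authors deposited, already normalized. The method is not given in the sources used here, beyond Partek, which the submitters' processing notes name. Of 35557 probesets 21789 had 1 gene symbol, 1621 several and 12147 were not listed, and for 999 genes with more than 1 probeset the brightest was used. A model with 12 group means was fitted in limma 3.58.1 (R 4.3.3; lmFit and eBayes, 22 residual and 6.7 prior degrees of freedom) to 19938 genes, with 23 comparisons and Benjamini-Hochberg adjustment in each at 0.05. The fit was checked on simulated data with independent noise and 1 spread per gene. That check does not cover spreads that differ between groups or genes that move together between plates. The number of arrays limits the precision.

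The members and the gene lists were chosen with earlier results of these data known. Values of every array are given for 9 core genes and for the called genes with the largest rises and falls of each comparison (2 each way for midpoint or end against start, 1 otherwise); others are summarised. No 2 arrays held the same values (highest correlation 0.9912). The labels give no batch and tie no arrays of different times together; deviations of same-numbered arrays correlated at -0.183 to 0.164, so the numbers were not taken as pairs. Alternatives were other normalizations, a filter on dim genes, every probeset tested alone, a trended robust prior, a replicate block and leaving out each array. A fit of only the groups compared was added after the spread of the members was seen to differ between groups.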

Additional observations from a re-analysis of the deposited data

Results flagged for a closer look

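The results here are those where a course differed from its counterpart in a direct limma test of the difference; groups of 2 or 3 arrays are too small for a test of single outlying arrays, and no cause was tested. Between the drugs in 8093, Mrc1 changed more with nilotinib at the midpoint, by 3.49 ± 0.69 (SE, adjusted p = 0.000339), and Siglech less, by -1.85 ± 0.19 (adjusted p = 6.8e-08). At the end the same difference was 4.98 ± 0.59 for Lilr4b (adjusted p = 5.99e-08) and -2.01 ± 0.21 for Siglech (adjusted p = 7.34e-09). In Bin-2 it was 2.54 ± 0.47 for Csf1r at the midpoint (adjusted p = 0.00373) and 4.09 ± 0.75 for C1qc at the end (adjusted p = 0.000401).

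Between the lines with nilotinib, the Bin-2 change exceeded the 8093 change by 2.19 ± 0.19 for Siglech at the midpoint (adjusted p = 1.81e-09), while the Lyz2 difference was -3.84 ± 0.76 (adjusted p = 0.000289). At the end the differences were 2.82 ± 0.59 for Adgre1 (adjusted p = 0.000356) and -3.66 ± 0.52 for Cybb (adjusted p = 1.64e-06). With lonafarnib they were -1.94 ± 0.19 for Siglech at the midpoint (adjusted p = 1.85e-07), and 2.24 ± 0.59 for Adgre1 (adjusted p = 0.0227) and -3.84 ± 0.52 for Cybb (adjusted p = 1.28e-05) at the end. Siglech is the gene that changed in opposite directions in the lines under both drugs. The start levels of Adgre1, Cybb and Siglech also differed between the lines.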

How the results depend on the processing

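Of 4018 refits of the changes of named members, 3846 kept direction and side of the threshold, 141 lost the call, 30 gained one and 1 reversed. Apart from single arrays left out, these counts of members moved by over 1.5 times, and the cause was not tested. From midpoint to end of nilotinib in 8093, 5 rose and 4 fell after scale normalization, and 1 fell with every probeset tested. From midpoint to end of lonafarnib in 8093, 4 fell with every probeset tested or with a trended robust prior, and 5 with a replicate block or with only the groups compared. With only the groups compared, 2 fell by the end of lonafarnib in 8093, and 1 rose and 10 fell from midpoint to end of lonafarnib in Bin-2. In the difference between the drugs at the Bin-2 midpoint, 2 were higher with the trended robust prior or the replicate block. In the difference between the lines with lonafarnib, 1 was lower at the midpoint after quantile normalization or with the block, and 0 were higher at the end with every probeset tested or with the block. The block moved no other count of members by that much; it could not be fitted to the starts. The filter on dim genes left 31 members (without Aif1 and Ms4a7) of 12281 genes.

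With each array left out in turn, the count that rose from midpoint to end of nilotinib in 8093 ran from 3 to 12 and the count that fell from 1 to 4. Csf1r there ran from -0.94 (adjusted p = 0.0384, without end replicate 1) to 1.09, against 0.07 with all arrays, the only reversal. From start to end of lonafarnib in 8093 the counts ran from 3 to 8 risen and 0 to 1 fallen, and from midpoint to end 1 to 8 fell. From midpoint to end in Bin-2, 1 to 16 rose and 0 to 1 fell with nilotinib and 1 to 4 fell with lonafarnib, and from start to end of lonafarnib 1 to 2 fell. The difference between the drugs gave 17 to 28 higher at the end in 8093 and 2 to 5 at the midpoint in Bin-2. The difference between the lines gave 7 to 13 lower at the nilotinib end, 1 to 2 lower at the lonafarnib midpoint and 0 to 1 higher at the lonafarnib end. With 2 arrays at each 8093 end, leaving 1 out leaves a lone array that is assumed to vary like the other groups. Levels near 4.76 are close to background, where changes are compressed.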
